A study of Homo sapiens with 4 samples.

Results

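The 36 genes described here encode integrin subunits and laminin chains: 18 integrin alpha subunits, 8 integrin beta subunits, 5 laminin alpha chains, 3 laminin beta chains and 2 laminin gamma chains. They were chosen by gene name, with earlier results of these data known, out of 20163 protein-coding genes of the GENCODE annotation on hg19. The study was aimed at mutations in non-coding DNA that may act on cancer genes, and profiled the histone mark H3K27ac by ChIP-seq in lines from the ovary (OVCAR-3, SKOV-3), the prostate (DU-145) and the colon (COLO-205). All 4 are established human cancer lines and were grown untreated to near confluence, each in its own serum-containing medium, with 1 library per line. No value has a replicate error, no test between lines was possible, and the intervals below cover counting error only. A gene was called marked in a line when a peak overlapped the window from 1 kb before to 1 kb after any of its transcript starts. A distal peak of a gene lay within 50 kb of the gene body and outside the 1 kb window around every start of a protein-coding gene.

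Integrins are receptors made of an alpha and a beta subunit that span the plasma membrane and tie the extracellular matrix to the actin or keratin skeleton. Laminins are cross-shaped trimers of an alpha, a beta and a gamma chain that form the sheet on which epithelial cells sit, the basement membrane. In epithelia the integrins alpha3beta1 and alpha6beta4 bind laminin, and alpha6beta4 anchors the hemidesmosome. H3K27ac, acetylation of lysine 27 of histone H3, is found at active promoters and enhancers, so the lists report on regulatory regions and not on the amount of RNA or protein.

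The list of SKOV-3 held 14001 peaks, those of DU-145 and OVCAR-3 75468 and 76093, and that of COLO-205 85576, from 22398822 ChIP tags in SKOV-3 to 36047378 in DU-145 as computed from the deposited peak values. SKOV-3 stands apart by the short list, and an absent peak there is weak evidence of an absent mark, so the count of genes marked in every line is also given for the other 3. Peak density was uneven along the genome. Relative to the median chromosome of the line it was 2.97 times as high on chromosome 17 in OVCAR-3 and 2.37 times in SKOV-3, and 0.164 times on chromosome 18 in COLO-205 and 0.0856 times on chromosome 7 in SKOV-3. The 4 epithelial markers CDH1, EPCAM, KRT8 and KRT18 were marked in all lines but SKOV-3, where only the keratins were. Of the 6 intestinal markers 4 were marked in COLO-205, CDX2 and VIL1 among them. Of the 6 Mullerian and ovarian carcinoma markers OVCAR-3 had 6 marked, COLO-205 4, DU-145 3 and SKOV-3 2. The ovarian markers thus did not set SKOV-3 apart from the lines of other organs. Of 4 luminal prostate markers 1 was marked in DU-145 (TMPRSS2), against 3 in COLO-205, KLK2 and KLK3 among them, and 2 in OVCAR-3. These 4 genes did not single out DU-145, and so few marks, found in other lines too, cannot test its prostate origin. For comparison, SKOV-3 marked 31.6% of all protein-coding genes, COLO-205 51.1%, DU-145 59.8% and OVCAR-3 60.5%. Among 6 leukocyte markers only CORO1A was marked, in COLO-205 and in DU-145, while PTPRC, SPI1, CD53, LAPTM5 and CD3E had no promoter peak in any line.

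Of the 36 genes, DU-145 had promoter peaks at 24, OVCAR-3 at 21, COLO-205 at 18 and SKOV-3 at 13. In COLO-205 this is 50% of the list, where 51.1% of all protein-coding genes were marked, and in DU-145 66.7% against 59.8%. In OVCAR-3 it is 58.3% against 60.5%, and in SKOV-3 36.1% against 31.6%, so the integrin and laminin genes as a whole stood within 7 percentage points of the background in each line. The list differs from other genes in its gene models: its members had a median of 9.5 transcript starts and a length of 80.6 kb, against 5 starts and 27.2 kb over all protein-coding genes. With 1 start per gene the share of the list came to 38.9% against 43.4% in COLO-205, 52.8% against 54.5% in DU-145, 44.4% against 55.1% in OVCAR-3 and 33.3% against 28.05% in SKOV-3. The list then lay below the background in DU-145 too. The sign and size of the gap changed with the setting: among genes on chromosomes within 2 times of the median peak density it was 44% against 61.3% in OVCAR-3 and 42.3% against 51.7% in COLO-205, and with 14001 peaks per list it was 27.8% against 37.9% in OVCAR-3. Without the genes that share a start with another gene the list lay above the background in every line, at 51.6% against 47.6% in COLO-205, 32.3% against 27.3% in SKOV-3, 54.8% against 54.1% in OVCAR-3 and 64.5% against 53.5% in DU-145.

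**Figure D1:**
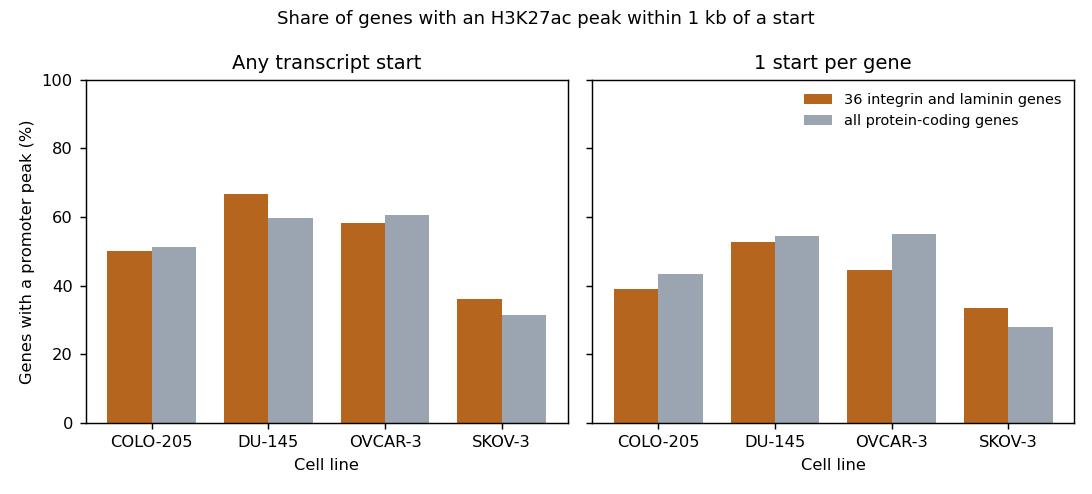
Bars give the percentage of genes with an H3K27ac peak within 1 kb of a start, for the 36 integrin and laminin genes and for all protein-coding genes, in each cell line (x axis). On the left any start of a gene counts and on the right 1 start per gene; the list stays within 7 percentage points of the background on the left, and lies below it in COLO-205, DU-145 and OVCAR-3 on the right.

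Gene by gene, the marking ran from all lines to none. Marked in all 4 lines were 9 genes, which is 25% of the list against 25.2% of all genes: the laminin-binding alpha subunits ITGA3, ITGA6 and ITGA7, the alpha subunits of the fibronectin and vitronectin receptors ITGA5 and ITGAV, the beta subunits ITGB1, ITGB4 and ITGB5, and the laminin chain LAMC1. The count was 5 at a −log10 q of at least 10, and 2 with 14001 peaks per list. With the SKOV-3 list set aside, 4 more were marked in each of the remaining lines (ITGA2B, ITGAE, ITGB8 and LAMA5), which makes 13 of 36, or 36.1%, against 38.1% of all genes. Marked in no line were ITGA1, ITGA11, ITGA4, ITGAD, ITGAX, ITGB6, ITGB7 and LAMA4. Another 6 were marked in 1 line only, ITGA8, ITGAM and LAMB1 in COLO-205, ITGA10 and ITGAL in DU-145 and ITGA9 in OVCAR-3, which is 16.7% against 15.4% of all genes. At least 1 line marked 28 of the 36, where 75% of all genes were marked in at least 1.

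**Figure D2:**
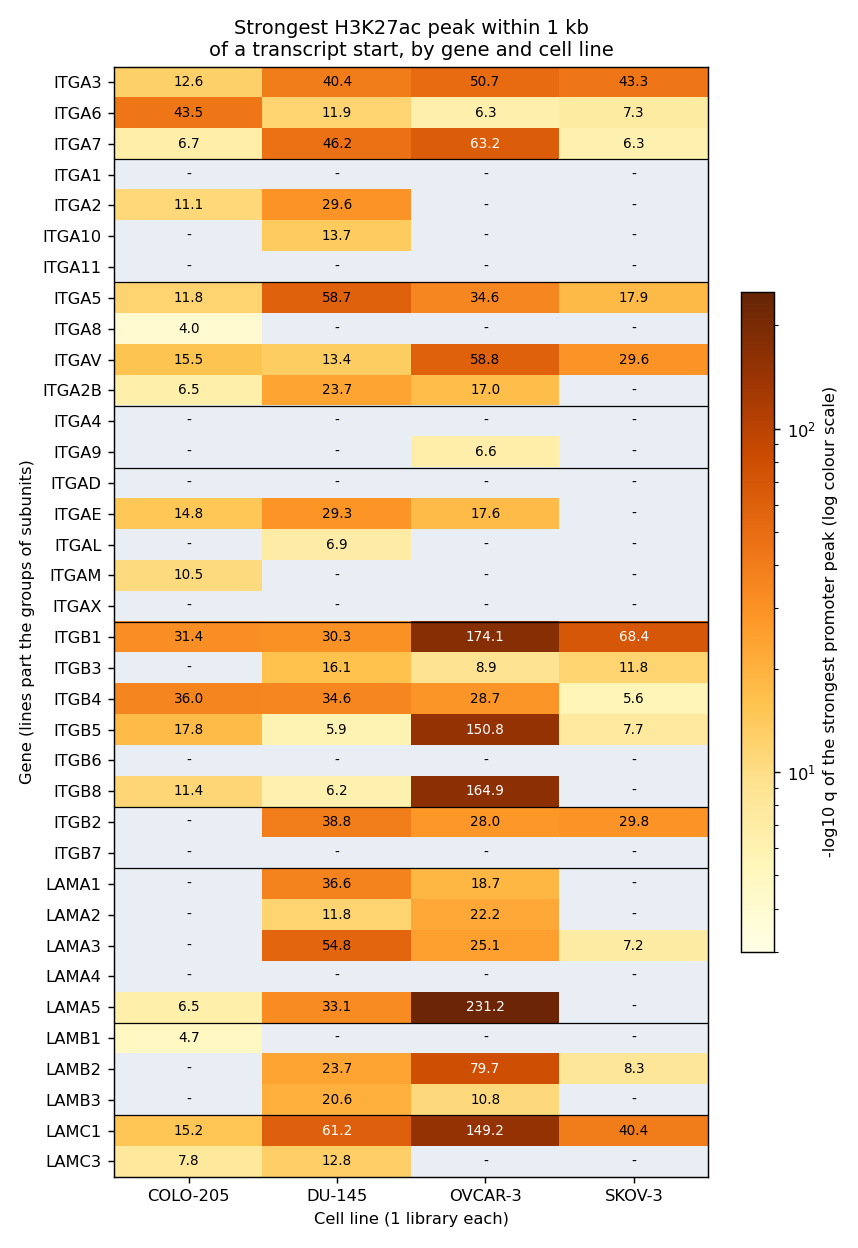
Each cell gives the −log10 q of the strongest peak within 1 kb of a transcript start of the gene (rows, grouped by role) in a cell line (columns), on a logarithmic colour scale, and a dash marks a gene with no such peak. The rows of ITGA3, ITGA6, ITGA7, ITGA5, ITGAV, ITGB1, ITGB4, ITGB5 and LAMC1 are filled in all columns, the collagen-binding and leukocyte rows are mostly empty, and the values over 140 are all in OVCAR-3. The values are scaled within a library.

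The bases in front of 2 genes marked in all lines and of 3 genes whose marking differed between lines are printed here, because they adjoin the main starts at which the marking is compared below. Each runs 250 bases up to the base before the outermost start of the main start group, is written 5′ to 3′ on the strand of the gene, comes from GRCh37 (hg19), and holds no annotated exon. Capitals mark GGGCGG or its reverse complement CCGCCC (the GC box known from many housekeeping promoters) and GGAATG or CATTCC (the core bound by TEAD factors). The third motif searched, TGANTCA (bound by AP-1 factors), was in none of these 5 windows, although the ITGA5 window that runs on to 50 bases after the start holds 1. On both strands, 56.7% of the 19815 promoters of the same length held GGGCGG, 9.89% GGAATG and 4.80% TGANTCA.
LAMC1, chr1:182992305-182992554, plus strand: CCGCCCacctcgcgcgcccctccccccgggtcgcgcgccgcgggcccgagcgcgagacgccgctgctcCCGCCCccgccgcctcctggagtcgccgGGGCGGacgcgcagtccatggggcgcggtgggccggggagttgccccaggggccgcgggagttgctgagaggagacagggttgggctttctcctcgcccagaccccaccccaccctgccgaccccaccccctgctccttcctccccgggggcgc
ITGA5, chr12:54813051-54813300, minus strand: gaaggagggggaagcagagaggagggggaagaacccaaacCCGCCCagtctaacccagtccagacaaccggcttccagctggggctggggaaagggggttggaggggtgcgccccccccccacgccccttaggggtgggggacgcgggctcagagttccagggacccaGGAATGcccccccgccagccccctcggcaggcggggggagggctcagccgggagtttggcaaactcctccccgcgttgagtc
ITGA2, chr5:52284920-52285169, plus strand: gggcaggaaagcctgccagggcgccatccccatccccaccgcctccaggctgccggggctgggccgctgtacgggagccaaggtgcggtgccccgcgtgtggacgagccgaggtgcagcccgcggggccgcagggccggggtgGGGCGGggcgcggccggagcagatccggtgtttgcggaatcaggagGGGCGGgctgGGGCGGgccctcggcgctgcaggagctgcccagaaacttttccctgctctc
ITGB8, chr7:20370075-20370324, plus strand: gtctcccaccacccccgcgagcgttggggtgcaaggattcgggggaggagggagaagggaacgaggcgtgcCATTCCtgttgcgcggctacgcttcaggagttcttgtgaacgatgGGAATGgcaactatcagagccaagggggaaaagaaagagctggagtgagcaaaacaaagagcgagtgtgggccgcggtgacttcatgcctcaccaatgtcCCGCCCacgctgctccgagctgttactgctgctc
LAMA3, chr18:21269167-21269416, plus strand: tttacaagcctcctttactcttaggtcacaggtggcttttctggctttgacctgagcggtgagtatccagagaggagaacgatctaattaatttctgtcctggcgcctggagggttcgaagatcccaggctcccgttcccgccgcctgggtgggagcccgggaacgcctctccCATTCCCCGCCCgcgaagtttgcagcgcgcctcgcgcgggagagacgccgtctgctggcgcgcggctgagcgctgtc
In the ITGA5 window the peaks covered 250 bases in COLO-205, DU-145 and OVCAR-3 and 240 in SKOV-3. In the LAMC1 window they covered all bases in DU-145 and OVCAR-3, 214 in SKOV-3 and fewer in COLO-205. By contrast, the ITGB8 window was wholly covered in OVCAR-3, by 33 bases in COLO-205 and not at all in DU-145 or SKOV-3, and the LAMA3 window was wholly covered in DU-145, by 7 bases in SKOV-3 and not at all in COLO-205 or OVCAR-3. The summits of the strongest LAMC1 peaks lay upstream of the printed bases, and the strongest ITGB8 peaks of COLO-205 and DU-145 lay downstream of them.

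CpG content was lowest in the genes marked in no line and highest in those marked in 4, within this list and over all genes. In windows from 250 bases before to 50 bases after 1 start per gene, the median ratio of observed to expected CpG was 0.251 in the 8 genes marked in no line, 0.690 in the 11 marked in 1 or 2, 0.606 in the 8 marked in 3 and 0.859 in the 9 marked in 4. Over all protein-coding genes the medians of the same groups were 0.292, 0.748, 0.847 and 0.882. GGGCGG was in the windows of 1 of the 8 genes marked in no line and of 8 of the 9 marked in 4, where it was in 28.7% and 75.5% of all genes. The groups count a peak at any start, so a window can lie away from the mark. ITGA2B, marked in 3 lines, had a ratio of 0.111 at a main start without a peak in any line. ITGA7, marked in 4, had peaks at its main start in OVCAR-3 alone. The exceptions among the unmarked genes were ITGA1, ITGA11 and ITGA4, whose ratios of 0.668, 0.748 and 0.799 were those of CpG-rich promoters, while ITGB6 had no CpG in its window. ITGA5, marked in all 4 lines, had a ratio of 0.449, the lowest of its group.

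Among the laminin-binding alpha subunits, ITGA3, ITGA6 and ITGA7 were each marked in every line, although the ITGA7 mark lay mainly at a start shared with another gene and those of ITGA6 and ITGA7 in SKOV-3 fell below a −log10 q of 10. ITGA3 encodes alpha3 (chr17:48133332-48167845), the partner of beta1 in basal epithelial adhesion. Its strongest promoter peak reached a −log10 q of 43.3 in SKOV-3, 50.7 in OVCAR-3, 12.6 in COLO-205 and 40.4 in DU-145. The peak caller scales this value within a library, and it stands for how far the summit exceeds its local background, not for an amount. Over all marked genes the strongest promoter peak had a median of 42.7 in OVCAR-3, 21.5 in DU-145, 13.9 in SKOV-3 and 12.1 in COLO-205. Converted to tags at the summit per 1000000 ChIP tags (ppm), the ITGA3 peak stood at 2.89 in DU-145, 1.71 (95% Poisson interval 1.27 to 2.25) in COLO-205, 3.57 (2.83 to 4.45) in SKOV-3 and 2.25 in OVCAR-3. The SKOV-3 and COLO-205 intervals did not overlap. The 4 summits spread over 1517 bp. That of OVCAR-3 lay at -1026 bp from the nearest start, in a peak apart from those of COLO-205 and SKOV-3. The peak in DU-145 was 5019 bp wide, against 472 bp in COLO-205, and chromosome 17 was dense with peaks in all 4 lines, a density whose part in these values was not tested. ITGA6 encodes alpha6, the other laminin receptor subunit of basal epithelium, and was highest in COLO-205, where ITGA3 was lowest. Its −log10 q was 7.31 in SKOV-3, 6.32 in OVCAR-3, 11.9 in DU-145 and 43.5 in COLO-205, and its pileup was 2.72 ppm (2.16 to 3.38) in COLO-205 against 0.789 (0.520 to 1.15) in OVCAR-3. Only 1 promoter peak was called for ITGA6 in each line.

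ITGA7 encodes alpha7, the laminin receptor subunit of muscle, and its mark needs care. Its −log10 q was 6.66 in COLO-205, 63.2 in OVCAR-3, 46.2 in DU-145 and 6.25 in SKOV-3, and the 4 summits lay within 37 bp. They lay at the outermost starts of the gene, which belong to 4 non-coding transcripts and are shared with BLOC1S1, a gene of lysosome-related organelles. At the start group of the main ITGA7 transcript, 8.72 kb into the gene, OVCAR-3 alone had peaks, with a −log10 q of 8.71. The acetylation at the shared start cannot be assigned to ITGA7 or to BLOC1S1 from these lists.

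Of the collagen-binding subunits ITGA1, ITGA2, ITGA10 and ITGA11, 2 were marked in DU-145 (50%, with 59.8% of all genes), 1 in COLO-205 (25%, with 51.1%) and 0 in OVCAR-3 and SKOV-3 (with 60.5% and 31.6%). ITGA2, the collagen receptor subunit of epithelium and platelets, had a −log10 q of 11.1 in COLO-205 and 29.6 in DU-145 and no promoter peak in OVCAR-3 or SKOV-3. In DU-145 the peaks covered 182 bases of the printed window and in COLO-205 83. ITGA10, the subunit known from cartilage, was marked in DU-145 alone, with a −log10 q of 13.7 and a summit 816 bp past the start. ITGA1 and ITGA11, the collagen receptor subunits of mesenchymal cells, were marked in no line. ITGA1 nonetheless held a distal region under a peak in all 4 lines, 1 of the 3 such regions of the list, with a −log10 q of up to 47.6 in OVCAR-3. This pairing of an unmarked start and a shared distal region was seen at no other member.

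Among the subunits that recognise the peptide Arg-Gly-Asp, ITGA5 and ITGAV were marked throughout. ITGA5 encodes the fibronectin receptor subunit. At its promoter the −log10 q was 17.9 in SKOV-3, 34.6 in OVCAR-3, 11.8 in COLO-205 and 58.7 in DU-145, and the pileup in ppm was 2.41 (1.93 to 2.98) in DU-145 against 0.939 (0.624 to 1.36) in COLO-205. ITGAV encodes alphaV, which pairs with several beta subunits in receptors for vitronectin and latent TGF-beta. The −log10 q of this peak was 13.4 in DU-145, 15.5 in COLO-205, 29.6 in SKOV-3 and 58.8 in OVCAR-3. Both ovarian lines stood above the other two, at 3.04 and 2.77 ppm against 1.91 and 1.55, although the interval of SKOV-3 (2.12 to 3.55) overlapped that of COLO-205 (1.45 to 2.48). Ranked by −log10 q among the marked genes of each line, ITGAV stood at percentile 63.4 in OVCAR-3 and 63.3 in COLO-205. In SKOV-3 it stood at 87.1 and in DU-145 at 26.2. ITGA2B, the platelet subunit alphaIIb, was marked in COLO-205, DU-145 and OVCAR-3 only at internal starts and never at its main start. ITGA8, known from kidney mesenchyme, had a single weak peak in COLO-205 with a −log10 q of 3.96, and it was the only member with no distal peak in any line. ITGA4 was unmarked and ITGA9 was marked in OVCAR-3 alone, at a −log10 q of 6.62, and these 2 subunits are receptors for VCAM-1 and other ligands on motile cells.

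Of the 5 alpha subunits of leukocyte integrins, ITGAD and ITGAX were unmarked in every line. ITGAL was marked in DU-145 and ITGAM in COLO-205, each at 1 start of a non-coding or minor transcript deep in the gene, 36.7 kb and 64.7 kb from the outermost start, and their main starts had no peak. ITGAE, the alphaE subunit of intraepithelial lymphocytes, was marked in COLO-205, DU-145 and OVCAR-3, with −log10 q values of 14.8, 29.3 and 17.6. The strongest of these peaks lay in a group of non-coding starts 77.4 kb into the gene, beside the start of HASPIN, a kinase gene located in an intron of ITGAE. Only COLO-205 had a peak at the main ITGAE start, with a −log10 q of 5.48. Of the 6 leukocyte markers 5 had no promoter peak in any line. ITGB2, the beta subunit of the leukocyte integrins, did not share this pattern: it was marked in DU-145 with a −log10 q of 38.8, in SKOV-3 with 29.8 and in OVCAR-3 with 28.0, and had no promoter peak in COLO-205. The 3 summits lay 743 to 798 bp downstream of the nearest start, ITGB2-213, in the start group of the main transcript. ITGB7, the partner of alpha4 and alphaE, was unmarked in all lines.

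Of the 6 other beta subunits, ITGB1, ITGB4 and ITGB5 were marked in all lines, and ITGB6 in none. ITGB1 encodes beta1, the common partner of most alpha subunits. The strongest promoter peak reached a −log10 q of 68.4 in SKOV-3, 174 in OVCAR-3, 30.3 in DU-145 and 31.4 in COLO-205, and its summits lay within 57 bp, at -380 to -323 bp from the nearest start. In ppm it stood at 2.18 (1.68 to 2.78) in COLO-205, 5.64 (4.87 to 6.50) in OVCAR-3, 2.03 (1.59 to 2.55) in DU-145 and 4.11 (3.31 to 5.04) in SKOV-3. The ovarian lines were the higher pair, and neither of their intervals reached those of COLO-205 and DU-145. ITGB4 encodes beta4, the hemidesmosomal subunit with a long cytoplasmic tail. In −log10 q, its strongest promoter peak stood at 5.59 in SKOV-3, 28.7 in OVCAR-3, 36.02 in COLO-205 and 34.6 in DU-145, and COLO-205 had 10 promoter peaks at it, against 1 to 3 in the other lines. The flanks of ITGB4 held 204 peaks per Mb in COLO-205, where the median around all genes was 26.8, and 285 in OVCAR-3, and the part of this density in the count was not tested. The SKOV-3 summit lay 1018 bp past the nearest start.

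**Figure D3:**
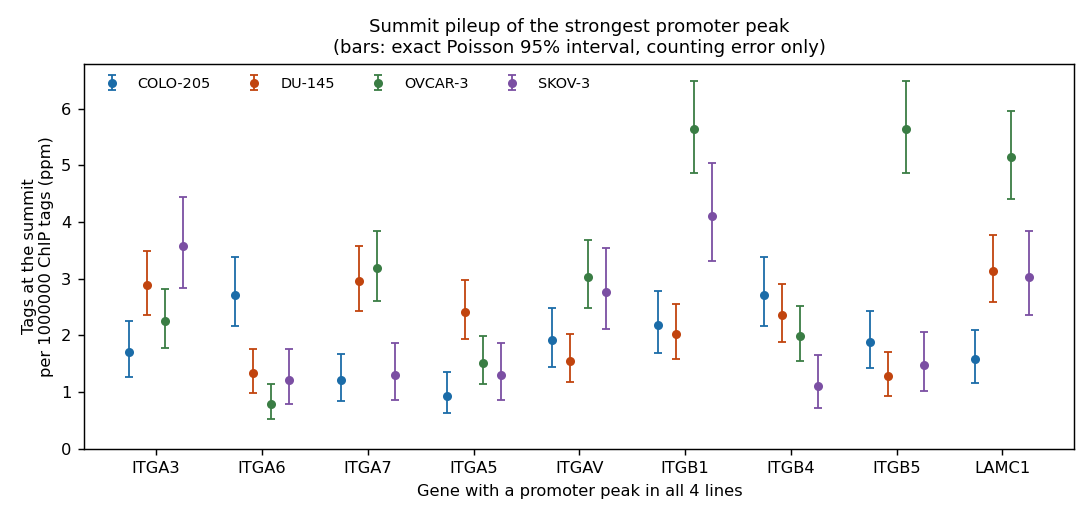
Tags at the summit of the strongest promoter peak per 1000000 ChIP tags (ppm, y axis) are shown for the 9 genes marked in all 4 lines (x axis), with points coloured by cell line and bars for the exact Poisson 95% interval, which covers counting error only. ITGB1, ITGB5 and LAMC1 in OVCAR-3 stand above 5 ppm, ITGB1 in SKOV-3 stands above COLO-205 and DU-145, and ITGA6 is highest in COLO-205. The 4 summits of a gene need not coincide, and spread over 37 bp (ITGA7) to 1517 bp (ITGA3).

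ITGB5 encodes beta5, the partner of alphaV in a vitronectin receptor (chr3:124480795-124620265). At its promoter the −log10 q was 5.88 in DU-145, 17.8 in COLO-205, 7.73 in SKOV-3 and 151 in OVCAR-3. The 4 summits spread over 1032 bp. In OVCAR-3, 16 promoter peaks touched 12 of its 13 starts, against 1 or 2 peaks in the other lines. Peaks were dense in this whole neighbourhood: in OVCAR-3, chromosome 3 had 2.45 times the median density and the 1 Mb on each side of the gene, outside the 50 kb next to it, held 313 peaks per Mb, against a median of 26.8 per Mb around all genes. ITGB8 encodes beta8, which binds latent TGF-beta with alphaV, and presents the opposite setting. The −log10 q of this peak was 11.4 in COLO-205, 6.18 in DU-145 and 165 in OVCAR-3, where a single peak of 2499 bp stood at 6.52 ppm (5.69 to 7.43) against 1.34 and 0.888 in the other two. The flanks of ITGB8 in OVCAR-3 held only 6.32 peaks per Mb, so this strong promoter lay in a sparse region. Its absence in SKOV-3 cannot be told apart from the emptiness of chromosome 7 in that list, where 65 peaks were called and 5.25% of the genes were marked. ITGB3, the beta3 subunit of platelets and endothelium, was marked at its main start in DU-145 (−log10 q 16.1) and SKOV-3 (11.8), and in OVCAR-3 only at an internal start 37.2 kb into the gene. ITGB6, the epithelial partner of alphaV, had no promoter peak in any line but 9 distal peaks in SKOV-3, 2 in COLO-205, 1 in DU-145 and 3 in OVCAR-3.

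The laminin alpha chains were marked more often in DU-145 and OVCAR-3, with 4 of 5 each, than in COLO-205 and SKOV-3, with 1 of 5 each. This contrast depends on the lengths of the lists, since with 14001 peaks in each DU-145 had 3 of 5, OVCAR-3 and SKOV-3 1 and COLO-205 0. With 1 start per gene DU-145 had 3, OVCAR-3 2, SKOV-3 1 and COLO-205 0. Of all genes, 59.8% were marked in DU-145, 60.5% in OVCAR-3, 31.6% in SKOV-3 and 51.1% in COLO-205. LAMA5, the alpha chain of the most widespread adult basement membrane laminins (chr20:60883011-60942368), had the highest value of the list. The strongest promoter peak reached a −log10 q of 6.46 in COLO-205, 33.1 in DU-145 and 231 in OVCAR-3, and SKOV-3 had no promoter peak there. In OVCAR-3 the peak was 12235 bp wide and reached 7.69 ppm (6.79 to 8.67), and 14 promoter peaks covered 28413 bp. In COLO-205 the mark lay at internal starts, the strongest 15.3 kb into the gene, and not at the main start. LAMA3 encodes the alpha3 chain of the epithelial laminins (chr18:21269417-21536186), which comes in a long and a short form. At the upstream start of the long form the −log10 q was 54.8 in DU-145 and 6.42 in SKOV-3, with no peak in COLO-205 or OVCAR-3. The coding starts of LAMA3-201 and LAMA3-207, 184 kb into the gene, had no peak in any line. OVCAR-3 was marked only at a non-coding start 138 kb into the gene (−log10 q 25.1), where SKOV-3 (7.22) and DU-145 (4.06) also had a peak. LAMA1, the alpha chain of the embryonic basement membrane, was marked in DU-145 (36.6) and OVCAR-3 (18.7). LAMA1 and LAMA3 are on chromosome 18, of which COLO-205 had few peaks and DU-145 2.004 times its median density. LAMA2, the muscle chain, was marked in DU-145 and OVCAR-3 only at starts 608 kb into a gene of 633 kb, and LAMA4, the chain of vessel walls, was unmarked in all lines.

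Of the beta chains, LAMB2 was marked in DU-145, OVCAR-3 and SKOV-3, LAMB3 in DU-145 and OVCAR-3, and LAMB1 in COLO-205 alone. LAMB2 encodes the beta2 chain, and at its main start the −log10 q was 8.27 in SKOV-3, 23.7 in DU-145 and 66.7 in OVCAR-3. The strongest OVCAR-3 peak of the gene, with a −log10 q of 79.7, lay elsewhere, beside a non-coding start 11.5 kb into the gene. A start of LAMB2 lies close to that of USP19, a deubiquitinase gene, and part of the mark cannot be assigned. LAMB3, the beta3 chain of epithelial laminin, had −log10 q values of 20.6 in DU-145 and 10.8 in OVCAR-3, and 4 promoter peaks over 3406 bp in DU-145. LAMB1, the beta1 chain, had 1 peak with a −log10 q of 4.73, the second lowest of the marked promoters after ITGA8. LAMC1 encodes the gamma1 chain found in most laminin trimers (chr1:182992555-183114727). In −log10 q, its strongest promoter peak stood at 40.4 in SKOV-3, 149 in OVCAR-3, 61.2 in DU-145 and 15.2 in COLO-205, and its 4 summits lay within 38 bp, at -557 to -519 bp from its start. The pileup was 1.58 ppm (1.16 to 2.097) in COLO-205, 3.14 (2.58 to 3.77) in DU-145, 5.14 (4.41 to 5.96) in OVCAR-3 and 3.04 (2.36 to 3.85) in SKOV-3. In ppm COLO-205 was lowest and OVCAR-3 highest, and their intervals overlapped with no other line. By rank of −log10 q among the marked genes of each line, LAMC1 stood at percentile 62.2 in COLO-205 and 93.0 in OVCAR-3. In DU-145 it stood at 96.3 and in SKOV-3 at 94.8. LAMC3, the gamma3 chain, was marked in COLO-205 (7.84) and DU-145 (12.8).

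Subunits act in pairs or trimers, so the marks were also read by receptor, with a mark at any start of a gene counted. Both subunits were marked in all 4 lines for alpha6beta4, alpha3beta1, alpha6beta1, alpha7beta1, alpha5beta1 and alphaVbeta5. With 14001 peaks per list none of these 6 was complete in all lines, and ITGB4 in SKOV-3 was also lost with windows of 500 bp. For alphaVbeta3 this held in DU-145, OVCAR-3 and SKOV-3, for alphaVbeta8 in COLO-205, DU-145 and OVCAR-3, and for alpha2beta1 in COLO-205 and DU-145. Of the leukocyte receptors, alphaLbeta2 had both subunits marked in DU-145, where the ITGAL mark lay deep in the gene. In no line were both subunits of alpha1beta1, alphaVbeta6, alphaMbeta2, alphaEbeta7 or alpha4beta7 marked. All chains of laminin alpha5beta2gamma1 were marked in DU-145 and OVCAR-3, and all chains of alpha5beta1gamma1 in COLO-205 alone. The trimers of alpha1 or alpha2 with beta2 and gamma1 were complete in DU-145 and OVCAR-3, and those of alpha1, alpha2 or alpha4 with beta1 and gamma1 in no line. Some of these rest on marks away from the main start: alpha7beta1 in every line but OVCAR-3 on the start shared with BLOC1S1, alpha5beta1gamma1 in COLO-205 on internal LAMA5 starts, alphaVbeta3 in OVCAR-3 on an internal ITGB3 start, and the trimers with alpha2 on the LAMA2 starts deep in the gene.

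Distal peaks as listed were fewest in SKOV-3 and most in DU-145 and OVCAR-3, an order that depends on the lengths of the lists. There were 274 pairs of a gene and a distal peak in DU-145 and 274 in OVCAR-3, 146 in COLO-205 and 64 in SKOV-3. With 14001 peaks per list SKOV-3 led with its 64, ahead of DU-145 with 40, OVCAR-3 with 14 and COLO-205 with 7. The median per gene was 2 in COLO-205, as over all protein-coding genes, 3 against 2 in DU-145, 3.5 against 1 in OVCAR-3 and 0 against 0 in SKOV-3. The members are long, so the span searched is long too: per 100 kb searched there were 1.96 distal peaks in COLO-205 against 3.24 over all genes, 3.67 against 3.16 in DU-145, 3.67 against 2.99 in OVCAR-3 and 0.858 against 0.345 in SKOV-3. At least 1 distal peak was found at 25 members in COLO-205 (69.4%, with 73.6% of all genes), at 25 in DU-145 (69.4%, with 63.4%), at 27 in OVCAR-3 (75%, with 59.2%) and at 14 in SKOV-3 (38.9%, with 21.8%). A few genes carried much of the count. ITGB5 alone gave 118 of the 274 pairs in OVCAR-3, or 43.1%, LAMA3 gave 69 of 274 in DU-145, LAMC3 35 of 146 in COLO-205 and ITGA3 16 of 64 in SKOV-3. Without ITGB5 the OVCAR-3 count was 2.16 per 100 kb, and without LAMA3 that of DU-145 was 2.89, both below the value over all genes. Without ITGA3 the SKOV-3 count was 0.655 per 100 kb, still above the 0.345 over all genes.

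**Figure D4:**
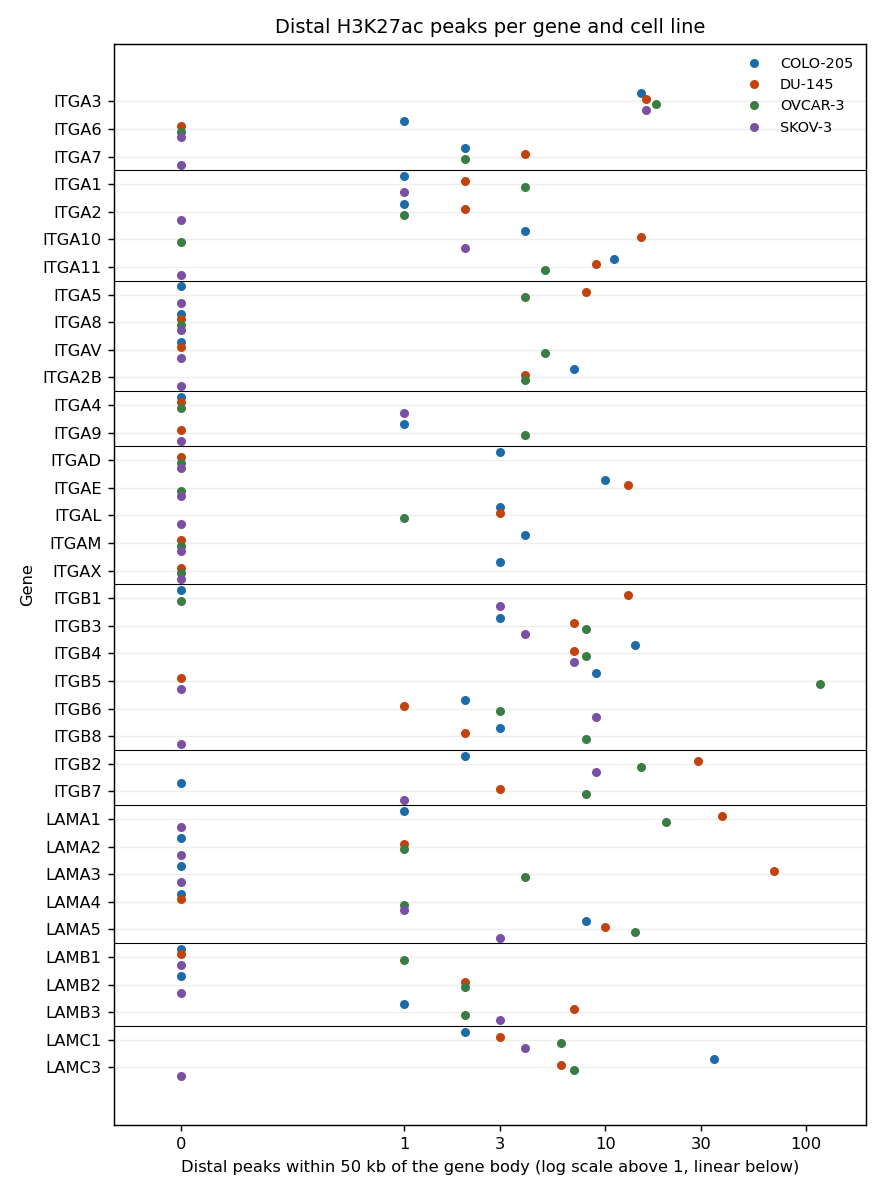
Each point is the number of distal H3K27ac peaks within 50 kb of the gene body of a member (y axis, grouped by role) in a cell line (colour), on an axis that is logarithmic above 1 and linear below. ITGB5 in OVCAR-3 (118), LAMA3 in DU-145 (69) and LAMC3 in COLO-205 (35) stand far to the right of the other lines at the same gene, while the points of ITGA3 lie together between 15 and 18.

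The 118 distal peaks of ITGB5 in OVCAR-3 lay mostly in the gene body, 78 of them, and covered 42497 bp. COLO-205 had 9 distal peaks at the gene and DU-145 and SKOV-3 had 0. Counted per 100 kb they were 49.3 in OVCAR-3 against 6.26 for all genes of chromosome 3 in this line, but the flanks beyond 50 kb were also full, as given above, and the part of the dense neighbourhood in the count was not tested. The strongest of them, at chr3:124608447-124609561, had a −log10 q of 89.9 and overlapped no peak of another line. It lay 10.9 kb after the outermost start of the gene but upstream of the main start group, at chr3:124606212-124606674. Of the 118, 8 overlapped a peak of another line.

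LAMA3 had 69 distal peaks in DU-145, 56 of them in the gene body, 4 in OVCAR-3 and 0 in COLO-205 and SKOV-3. In DU-145 they amounted to 18.8 per 100 kb, against 7.42 for all genes on chromosome 18, and the flanks held 142 peaks per Mb against a median of 29.5 around all genes. The 4 OVCAR-3 peaks all overlapped DU-145 peaks, 1 of them upstream of the gene and 3 beyond its end. The strongest DU-145 peak was at chr18:21298329-21299232, with a −log10 q of 35.0, inside the gene 29.3 kb after the start of the long form. LAMA1, on the same chromosome, had 38 distal peaks in DU-145, 20 in OVCAR-3, 1 in COLO-205 and 0 in SKOV-3, and the COLO-205 peak overlapped peaks of DU-145 and OVCAR-3. At LAMC3, the leading gene of COLO-205, the 35 peaks were weak, with a highest −log10 q of 11.9, where DU-145 with 6 reached 22.7 and OVCAR-3 with 7 reached 30.9. COLO-205 had 184 peaks per Mb in the flanks of LAMC3.

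**Figure D5:**
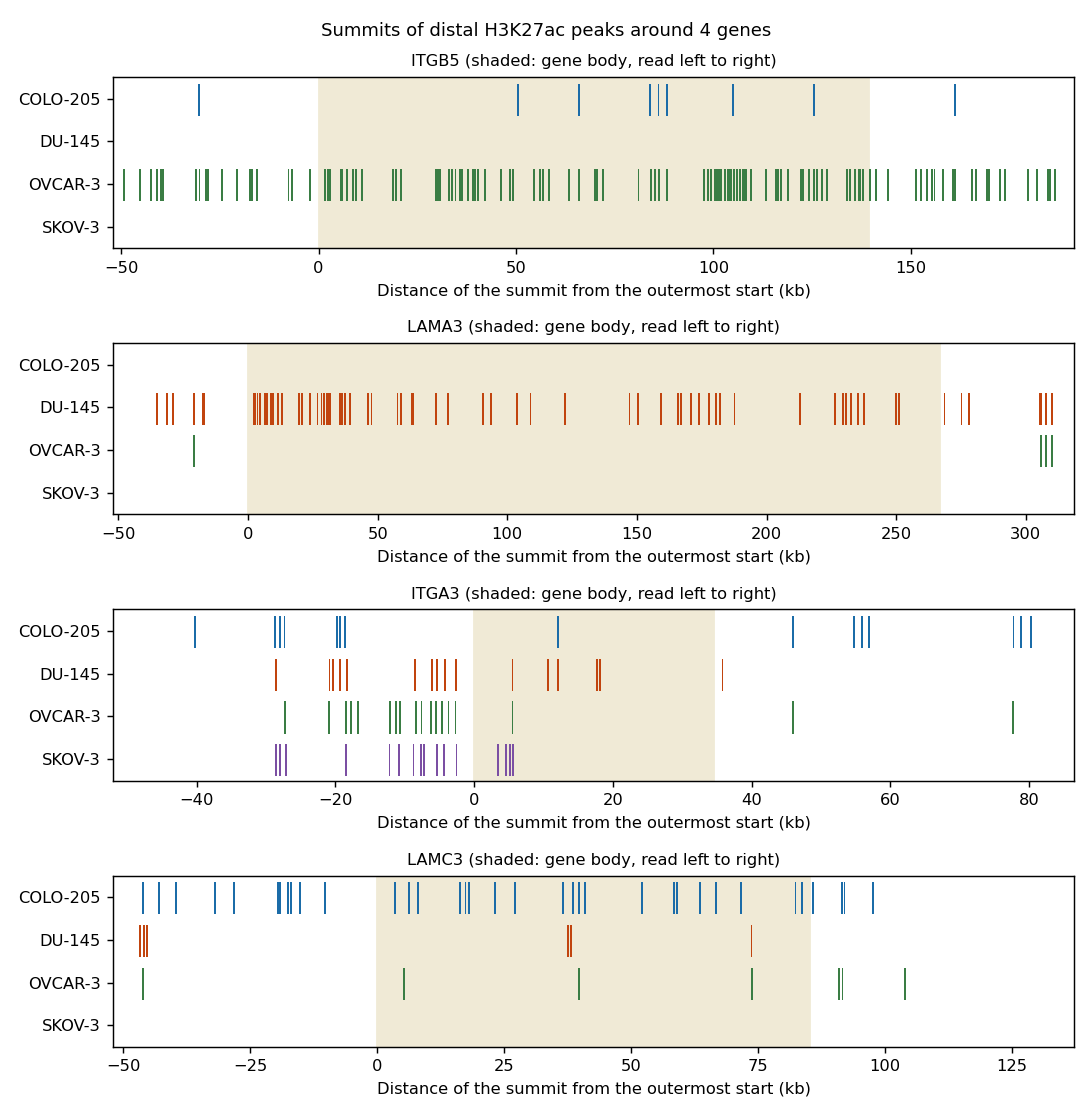
Vertical marks give the summits of distal H3K27ac peaks by distance from the outermost start (x axis, kb, in the direction of transcription) for ITGB5, LAMA3, ITGA3 and LAMC3, with a row per cell line and the gene body shaded; promoter peaks are not drawn. The marks fill the OVCAR-3 row of ITGB5, the DU-145 row of LAMA3 and the COLO-205 row of LAMC3, whereas at ITGA3 all 4 rows hold 15 to 18 marks.

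At ITGA3 the number of distal peaks as listed was much the same in the lines: 15 in COLO-205, 18 in OVCAR-3, 16 in DU-145 and 16 in SKOV-3. Their heights were not, since the highest −log10 q was 9.05 in COLO-205 and 49.0 to 55.9 in the other lines. All 16 of SKOV-3 overlapped a peak of another line, as did 15 of 18 in OVCAR-3, 11 of 16 in DU-145 and 8 of 15 in COLO-205. Of the 616 distal regions formed by joining overlapping peaks of the 4 lines around the list, 519 were found in 1 line, 78 in 2, 16 in 3 and 3 in all 4, and 2 of those 3 were upstream of ITGA3. Of the SKOV-3 distal peaks at the members 79.7% overlapped a peak of the other, longer lists, against 66.0% of all its distal peaks, while in COLO-205 the shares were 27.3% and 15.9%, in DU-145 27.01% and 25.8%, and in OVCAR-3 29.3% and 28.6%. The 201 bases around the strongest distal summits of ITGA3 in SKOV-3 and of LAMA3 in DU-145 are printed because the first is shared by 3 lines and the second belongs to 1. They are from GRCh37, on the plus strand, which is also the strand of both genes, with the motifs named above in capitals.
ITGA3, chr17:48124496-48124696, at -8.74 kb from the gene start: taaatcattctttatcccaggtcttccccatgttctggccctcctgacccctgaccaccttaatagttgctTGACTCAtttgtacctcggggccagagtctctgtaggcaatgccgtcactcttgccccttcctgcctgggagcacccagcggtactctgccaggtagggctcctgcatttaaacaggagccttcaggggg
LAMA3, chr18:21298571-21298771, in the gene body: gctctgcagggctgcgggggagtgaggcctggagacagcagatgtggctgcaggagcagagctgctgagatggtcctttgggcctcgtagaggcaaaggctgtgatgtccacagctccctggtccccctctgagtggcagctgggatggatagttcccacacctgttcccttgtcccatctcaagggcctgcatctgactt
The ITGA3 stretch held 1 TGANTCA, read as TGACTCA, and was wholly under a peak in DU-145, OVCAR-3 and SKOV-3 and under none in COLO-205. In windows of this length TGANTCA was at 3.60% of all distal summits of SKOV-3 and at 1 of the 64 near the members. In DU-145 it was at 17 of 274 summits near the members, or 6.20%, and at 4.55% of all distal summits. The LAMA3 stretch held none of the 3 motifs.

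ITGB2 was the leukocyte gene with the most distal peaks, 29 in DU-145, 15 in OVCAR-3, 9 in SKOV-3 and 2 in COLO-205, and 27 of the 29 lay outside the gene body. All 9 of SKOV-3 overlapped another line. Its strongest distal peak had a −log10 q of 38.1 in DU-145, 10.6 in OVCAR-3, 28.6 in SKOV-3 and 6.84 in COLO-205. LAMA5 had 3 distal peaks in SKOV-3, 14 in OVCAR-3, 8 in COLO-205 and 10 in DU-145, and 1 in OVCAR-3 reached a −log10 q of 244, above its own promoter. ITGAD and ITGAX, which are neighbours on chromosome 16, had the same 3 distal peaks in COLO-205 and none elsewhere. ITGAV, marked in all 4 lines, had its 5 distal peaks in OVCAR-3 only.

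The genes that work with integrins and laminins were taken from a list of 43. Of these, 20 were marked in SKOV-3 (46.5%, with 31.6% of all genes) and 34 in OVCAR-3 (79.1%, with 60.5%). In COLO-205 it was 26 (60.5%, with 51.1%) and in DU-145 31 (72.1%, with 59.8%). These shares count a mark at any start, in a list chosen with earlier results of these data known. They were not recalculated with fewer starts per gene, by peak density or at equal list length, settings that shifted the integrin and laminin gap. Whether the list stands above comparable genes was therefore not tested. The 4 hemidesmosome partners of alpha6beta4 were marked in DU-145 and OVCAR-3. PLEC, DST and CD151 were marked in every line, and COL17A1, the transmembrane collagen of the hemidesmosome, in DU-145 and OVCAR-3 only. Of 21 adaptors and kinases that join integrins to actin, 17 were marked in DU-145 and 17 in OVCAR-3, 14 in COLO-205 and 11 in SKOV-3. The shares of all genes given above put the lines in much the same order. TLN1, LIMS1, PXN, VCL, PTK2, BCAR1, ACTN1 and ACTN4 were marked in every line. The kindlins, which activate beta subunits, were divided: FERMT1, the epithelial form, was marked in SKOV-3, DU-145 and COLO-205, FERMT2 in DU-145, OVCAR-3 and SKOV-3, and FERMT3, the blood cell form, in none. TLN2, ILK, PARVA and ZYX were marked in DU-145 and OVCAR-3 and not in COLO-205, PARVG in COLO-205 alone, LIMS2 in OVCAR-3 alone, TNS4 in COLO-205 and DU-145, and TNS1 in COLO-205 and OVCAR-3.

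Among the 8 basement membrane partners of laminin, HSPG2 and AGRN were marked in all lines, and NID1, a linker of laminin and collagen IV, in DU-145 alone. COL4A1 and COL4A2, the collagen IV chains that share a start region, were marked in COLO-205, OVCAR-3 and SKOV-3 and not in DU-145, with 106 and 129 distal peaks in COLO-205. Both lie on chromosome 13, whose peak density was 4.28 times the median in COLO-205 but low elsewhere, at 0.267 times in SKOV-3, 0.141 in OVCAR-3 and 0.0945 in DU-145, so both genes were marked in 2 of the 3 sparse lists. COL4A5 and COL4A6 were marked in OVCAR-3 alone, and lie on chromosome X, where 41.5% of the genes were marked in that line and 14.6% to 16.5% in the others, a difference whose part in this was not tested. Of the laminin receptors outside the integrins, DAG1, the dystroglycan gene, was marked in DU-145 and OVCAR-3, and BCAM and RPSA in COLO-205, DU-145 and OVCAR-3. Of the 7 other ligands, FN1 (fibronectin) was marked in OVCAR-3 and SKOV-3, THBS1 in DU-145 and OVCAR-3, EDIL3 in DU-145, NPNT in COLO-205 and TNC in all 4, while VTN and SPP1 were marked in none.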

How the data were processed

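The data were H3K27ac ChIP-seq peak lists of 4 cell lines, with 1 library each. Per the submitters' processing notes and the study's methods, the authors mapped the reads to hg19 (GRCh37) with Bowtie2 2.1.0 and called narrow peaks per library with MACS2 2.1.0.20150603 at a q-value under 0.001. The deposited columns used are the fold enrichment of a summit over its local background, the −log10 p and the −log10 q, and a whole-number score made from the last by the authors' peak caller was read along with them, all scaled within a library. Merging of peaks under 350 bp apart is described in the methods but not seen in the deposited lists, which hold 2070 to 16181 such neighbours, so it was run as an alternative.

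The pileup at each summit was recovered as the whole number that fits the deposited fold enrichment and −log10 p within 0.001, which succeeded for 99.9% to 100% of peaks. The number of ChIP tags is the lowest background times 2700000000 genome positions, divided by the width of the narrowest peak. Intervals are exact Poisson 95% intervals. The annotation was GENCODE release 44 lifted to GRCh37, and the minimum overlap was 1 bp. Promoter windows for sequence used 1 start per gene, which 19815 genes have. Marking, distal counts and pileup recovery were checked on simulated data with planted answers. All 36 members were described, with the promoter peak of highest −log10 q per line, the strongest distal peak for the 6 members with the most, and pathway genes by their marking among COLO-205, DU-145 and OVCAR-3. Members and lists were chosen with earlier results of these data known, and no test was run. A few cell type markers and 1 promoter sequence are not reported here. Neighbouring starts at most 2 kb apart were joined into start groups, and the main start is that of the transcript tagged as principal in the annotation. ITGA1, ITGA7, ITGAE, ITGB3 and LAMB2 share a start region with another protein-coding gene. The tools were numpy 2.4.6 and scipy 1.17.1, with pandas 2.3.3 for tables and matplotlib 3.10.9 for plots, under Python 3.11.15.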

Additional observations from a re-analysis of the deposited data

How the results depend on the processing

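No paired analysis was possible because each line has 1 library and no result comes from a test, and no library could be left out within a group. The difference between the share of the list and that of all genes kept its sign in 36 of 44 recalculations with values from -17.3 to 10.98 percentage points. It turned in COLO-205, from -1.12 percentage points to 1.68 at a −log10 q of at least 10, 4.18 with windows of 2 kb and 3.97 without genes that share a start. In OVCAR-3 it turned from -2.12 to 0.783 without shared starts, in SKOV-3 from 4.55 to -2.74 at a −log10 q of at least 10 and -0.238 with windows of 500 bp, and in DU-145 from 6.84 to -1.75 with 1 start per gene. At a −log10 q of at least 10, 7 members were marked in SKOV-3 and 5 in all 4 lines, and the distal pairs fell to 26, 100, 144 and 33 in the order COLO-205, DU-145, OVCAR-3, SKOV-3, with medians of 0, 1 and 1 in the first 3. With 14001 peaks per list, 7, 15 and 10 members were marked in COLO-205, DU-145 and OVCAR-3 and 2 in all 4 lines, and the distal pairs fell to 7, 40 and 14, below the 64 of SKOV-3, with medians of 0. Within 10 kb the pairs were 73, 171, 168 and 35, with medians of 1 in the first 3 lines, and within 100 kb 236 in COLO-205 and 429 in DU-145, with medians of 7.5 in DU-145 and 0.5 in SKOV-3. Outside the starts of every annotated gene the OVCAR-3 median was 2. Counting only peaks whose nearest gene is the member left 87 pairs in COLO-205 and 179 in OVCAR-3, with medians of 1 in COLO-205, DU-145 and OVCAR-3. A restriction to genes on chromosomes within 2 times of the line's median density was chosen after seeing the data. It left 26 members in COLO-205 and 25 in OVCAR-3, of which 11 each were marked, turned the DU-145 difference to -3.36, and left 85, 120, 89 and 37 pairs, with medians of 1 in COLO-205 and 2 in OVCAR-3. The causes of these shifts were not tested, beyond fewer peaks, shorter spans or fewer genes by construction. The SKOV-3 list, with 14001 peaks, limits every count over all 4 lines.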
